A study of Mus musculus with 12 samples.

Results

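The interleukin and interleukin receptor genes of a mouse myeloid cell line were followed through 24 h of drug-induced maturation, with and without an shRNA against Hnrnpa0. They were taken as every non-control probe whose name in the scanner output begins with Il and a digit, less 1 probe that the rule leaves out. That gave 120 of 41174 probes, which stand for 80 genes, and 38 of these were among the 15061 genes tested. The cells were PUER, a line lacking PU.1 of its own that carries a fusion of PU.1 with an estrogen receptor domain and depends on the cytokine IL-3. 4-hydroxytamoxifen (4-OHT) activates the fusion. All 12 arrays came from cells infected with a retrovirus, sorted for its GFP and expanded, so that the controls carried a vector too. The groups were Hnrnpa0 shRNA cells after 24 h in 2 nM 4-OHT, Hnrnpa0 shRNA cells before it, control vector cells after 24 h in 2 nM 4-OHT, and control vector cells before it, with 3 arrays (A, B and C) in each. Clones differed between the vectors, so a difference between vectors is also one between clones. Cells kept in vehicle were not analysed here, and 4-OHT is therefore not separated from 24 h of culture.

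Interleukins are secreted proteins by which blood cells signal to each other, and most are read by a receptor of 2 or more chains. The IL-1 family works through related chains: Il1r1 carries the IL-1 signal, Il1r2 binds IL-1 without signalling, Il1rl1 (ST2) is the receptor of IL-33, Il1rl2 that of IL-36, and Il18r1 with Il18rap that of IL-18, while Il1rap is the partner chain of several of them. Most other interleukins use receptors that signal through JAK kinases and STAT factors, and the IL-17 family has receptors of its own. PU.1 is a transcription factor of the ETS family that macrophages and granulocytes need, and it binds purine-rich DNA around GGAA.

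Each value below is the signal of a 60-base probe, so it speaks only for transcripts that hold those bases. The following probes, 5′ to 3′, are shown because the largest changes rest on them or because probes of 1 gene differed. Il1rl2, Il1rl1 and Il1rn each had probes that gave different results, and the Il18 probe was printed 10 times on each array.
Il18 A_51_P153565: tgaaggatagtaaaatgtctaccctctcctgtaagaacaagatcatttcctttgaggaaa
Il1r2 A_51_P470079: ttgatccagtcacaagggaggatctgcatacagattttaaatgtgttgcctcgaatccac
Il1r1 A_51_P271503: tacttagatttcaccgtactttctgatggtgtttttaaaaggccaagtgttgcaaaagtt
Il1rl2 A_52_P261184: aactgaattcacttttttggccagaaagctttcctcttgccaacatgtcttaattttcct
Il1rl2 A_51_P467808: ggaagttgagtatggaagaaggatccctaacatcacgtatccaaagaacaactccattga
Il1rl1 A_52_P484194: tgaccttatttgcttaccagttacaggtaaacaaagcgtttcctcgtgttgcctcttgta
Il1rl1 A_51_P339793: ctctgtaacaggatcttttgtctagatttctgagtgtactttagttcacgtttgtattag
Il1rl1 A_52_P19955: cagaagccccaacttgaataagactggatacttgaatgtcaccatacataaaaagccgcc
Il1rn A_52_P431159: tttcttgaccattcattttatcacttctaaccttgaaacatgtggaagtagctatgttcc
Il1rn A_51_P307166: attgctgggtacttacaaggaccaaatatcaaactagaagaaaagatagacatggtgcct

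The promoters of 4 of the 6 IL-1 family receptor genes that lie next to each other are shown with that of Il18, because their genes rose by different amounts. Those of Il1r1 and Il18r1 are not printed. The sequences are from RefSeq (GRCm38.p6) and run from 250 bases before the start site to 50 after it, on the strand of the gene. Capitals mark GAGGAA on either strand, letters that hold the GGAA core. GGAA after other bases is not marked, though every printed window holds it, so a window without capitals does not lack the core. Il1rl1 has 2 start sites in the table, and the first along the chromosome is printed.
Il1r2 chr1:40085843-40086142 plus strand: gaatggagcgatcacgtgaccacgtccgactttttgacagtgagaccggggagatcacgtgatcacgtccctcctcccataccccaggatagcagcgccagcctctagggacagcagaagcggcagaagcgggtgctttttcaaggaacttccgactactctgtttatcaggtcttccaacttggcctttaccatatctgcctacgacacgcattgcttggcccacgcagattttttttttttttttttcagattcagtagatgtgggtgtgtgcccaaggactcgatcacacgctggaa
Il1rl2 chr1:40324339-40324638 plus strand: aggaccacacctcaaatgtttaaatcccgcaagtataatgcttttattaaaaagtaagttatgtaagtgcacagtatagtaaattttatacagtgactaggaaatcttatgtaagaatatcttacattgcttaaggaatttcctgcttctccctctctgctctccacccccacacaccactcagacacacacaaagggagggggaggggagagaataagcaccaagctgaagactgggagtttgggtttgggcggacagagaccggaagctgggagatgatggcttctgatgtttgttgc
Il1rl1 chr1:40429320-40429619 plus strand: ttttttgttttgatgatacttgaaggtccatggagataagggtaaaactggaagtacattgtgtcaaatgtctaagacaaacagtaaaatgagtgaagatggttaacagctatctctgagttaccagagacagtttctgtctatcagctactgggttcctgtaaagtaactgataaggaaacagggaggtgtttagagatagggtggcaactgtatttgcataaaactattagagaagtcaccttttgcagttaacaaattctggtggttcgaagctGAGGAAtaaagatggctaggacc
Il18rap chr1:40515112-40515411 plus strand: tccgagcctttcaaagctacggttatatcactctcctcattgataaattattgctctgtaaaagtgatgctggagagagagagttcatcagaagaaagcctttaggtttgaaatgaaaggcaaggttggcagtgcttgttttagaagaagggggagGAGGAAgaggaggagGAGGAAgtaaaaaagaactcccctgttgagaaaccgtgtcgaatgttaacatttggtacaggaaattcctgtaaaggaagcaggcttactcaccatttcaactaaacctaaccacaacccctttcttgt
Il18 chr9:50554450-50554749 plus strand: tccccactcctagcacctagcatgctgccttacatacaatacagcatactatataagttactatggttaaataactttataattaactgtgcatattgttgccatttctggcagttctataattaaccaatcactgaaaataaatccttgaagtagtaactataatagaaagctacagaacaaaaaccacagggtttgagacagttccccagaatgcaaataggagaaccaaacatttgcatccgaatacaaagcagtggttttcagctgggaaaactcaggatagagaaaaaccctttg
The motif stood at positions -94 and -79 of the Il18rap promoter and at position 28 of the Il1rl1 promoter, and it was not in the windows of Il1r2, Il1rl2 or Il18. Neither window of Il1r1 held it, and 1 of the 3 windows of Il18r1 did. The table had a promoter for 64 of the 80 interleukin genes, and 25 of the 64 (39.1%) held the motif in at least 1 window. Counted the same way, 8446 of all 27025 genes (31.3%) did, and by windows the share was 28.3% of 32851.

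Between 50.3% and 55.7% of the spots of an array were well above background, a call of the scanner software. The 75th percentile of the intensity ran from 1196 to 2583 over the 12 arrays, and 357 to 1165 spots of an array were marked as outliers. Both Hnrnpa0 probes were lower on all 6 shRNA arrays than on any control array, with log2 differences of -2.10 and -1.94 after 4-OHT and -1.54 and -1.37 before it. All 9 monocyte and macrophage markers rose with 4-OHT in both vectors. Their summed signal, in multiples of the array's 75th percentile, was 33.3 to 40.1 in shRNA cells after 4-OHT against 11.1 to 12.1 before it, and 44.9 to 61.9 in control cells after 4-OHT against 12.3 to 14.3 before it. The 9 mast cell and basophil markers summed to 2.24 to 2.44 against 5.89 to 6.22 in shRNA cells and to 1.79 to 1.90 against 5.60 to 5.83 in control cells, again after 4-OHT against before, with Cma1, Cpa3 and Tpsb2 well above background on no array. Of 5 eosinophil markers 3 rose in shRNA cells and 4 in control cells, of 4 dendritic cell markers tested 2 rose in each vector, and of 9 granulocyte markers 1 rose and 4 fell in each. The granulocyte markers summed to 122.4 to 171 in shRNA cells after 4-OHT against 184.4 to 219 before it, and to 144 to 196 in control cells after 4-OHT against 202.3 to 269.6 before it. The eosinophil markers summed to 0.25 to 0.44 against 0.09 to 0.10 in shRNA cells and to 0.41 to 1.48 against 0.06 to 0.37 in control cells, and the dendritic cell markers to 0.91 to 1.06 against 0.30 to 0.42 and to 0.95 to 1.19 against 0.29 to 0.38, each after 4-OHT against before. Of 10 T cell markers, 4 or 5 were well above background on all 3 arrays of each group, and they summed to 2.46 to 3.66 over the 12 arrays, with Cd3g and Cd8a well above background on no array. Of 6 B cell markers 1 was so in each group (sum 0.10 to 0.18), with Ms4a1, Pax5 and Blk on no array. Of 4 NK cell markers Gzma, Ncr1 and Prf1 were on no array (sum 0.04 to 0.07), and of the dendritic cell markers Clec9a, H2-Aa and H2-Ab1. The part of these markers in the changes below was not tested, and in RNA from a whole culture fewer cells of a type cannot be told apart from less RNA per cell.

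Of the 80 interleukin genes, 33 had no probe well above background on any array. Another 9 were well above background on 1 or 2 arrays and were not tested. The genes without signal included many cytokines that lymphocytes make, among them Il4, Il5, Il9, Il10, Il17a, Il21 and Il22, and the inflammatory cytokines Il1a, Il6, Il12b and Il23a. Other lymphocyte cytokines did give signal: Il13 was well above background on all 12 arrays, Il2 on 2 and Il17f on 1. Il3, the cytokine on which the line depends and which was in the medium, was itself well above background on 1 control array after 4-OHT only.

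**Figure D1:**
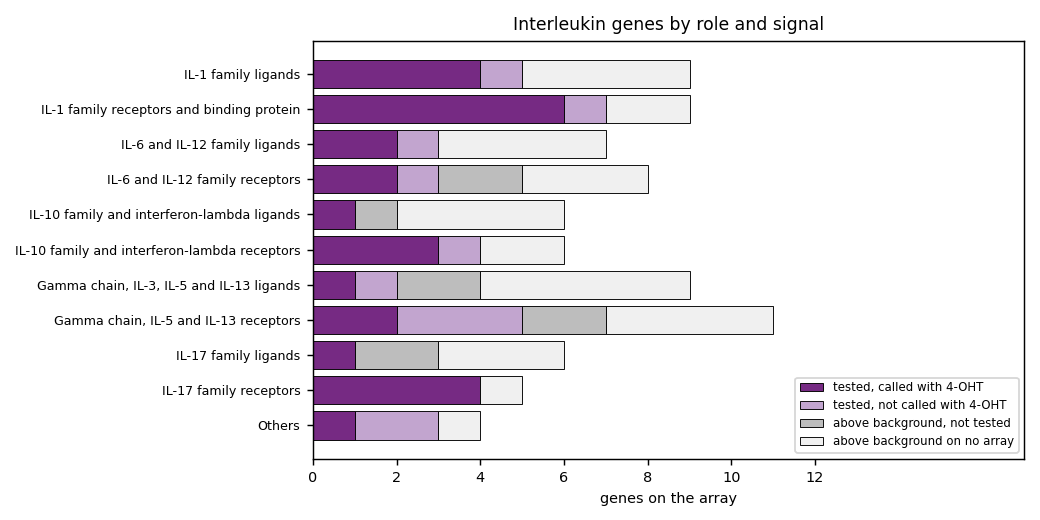
Number of interleukin genes on the array (horizontal axis) by role (vertical axis). Dark segments are genes tested and called with 4-OHT in at least 1 vector (27), light purple genes tested and not called (11), grey genes above background on 1 or 2 arrays and not tested (9), and pale segments genes above background on no array (33).

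4-OHT changed most of the interleukin genes that could be measured, and far more of them rose than fell. In shRNA cells 17 of 38 rose and 7 fell (limma, adjusted p under 0.05), where 16.5% of all genes tested rose and 21.8% fell. In control cells 19 of 38 rose and 7 fell, where 17.5% of all genes rose and 23% fell. The median log2 change of the 38 was 0.15 in shRNA cells and 0.34 in control cells, beside -0.08 and -0.07 over all genes. A gene was tested if well above background on at least 3 arrays. Il1r1, Il1rl1, Il1rl2, Il10ra and the tested Il10rb probe met this only through arrays after 4-OHT, and Il17re only through arrays before it. Only 1 direction was open to these genes, so their part in the counts is no support for a trend. The same 17 genes rose and the same 6 fell in both vectors, Il11 was called in shRNA cells alone, and Il17rd, Il1b and Il24 were called in control cells alone. The last 4 are not shown to respond differently, since the test of the difference between the responses gave limma adjusted p of 0.814 or more for each of them. Arrays of 1 slide gave the same sign for all 24 genes called in shRNA cells (slide 3, 3 arrays after 4-OHT and 1 before) and all 26 called in control cells (slide 1, 1 array after and 3 before). That is no separate support, since these arrays are part of the same groups. The groups did not overlap for 24 of the 24 and 25 of the 26, which fixes the sign within a slide. Genes that were called are nearly bound to have groups apart. Among all 38 tested, the groups did not overlap for 26 in shRNA cells and 27 in control cells. Over all genes tested they did not overlap for 51.5% in shRNA cells and 51% in control cells.

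**Figure D2:**
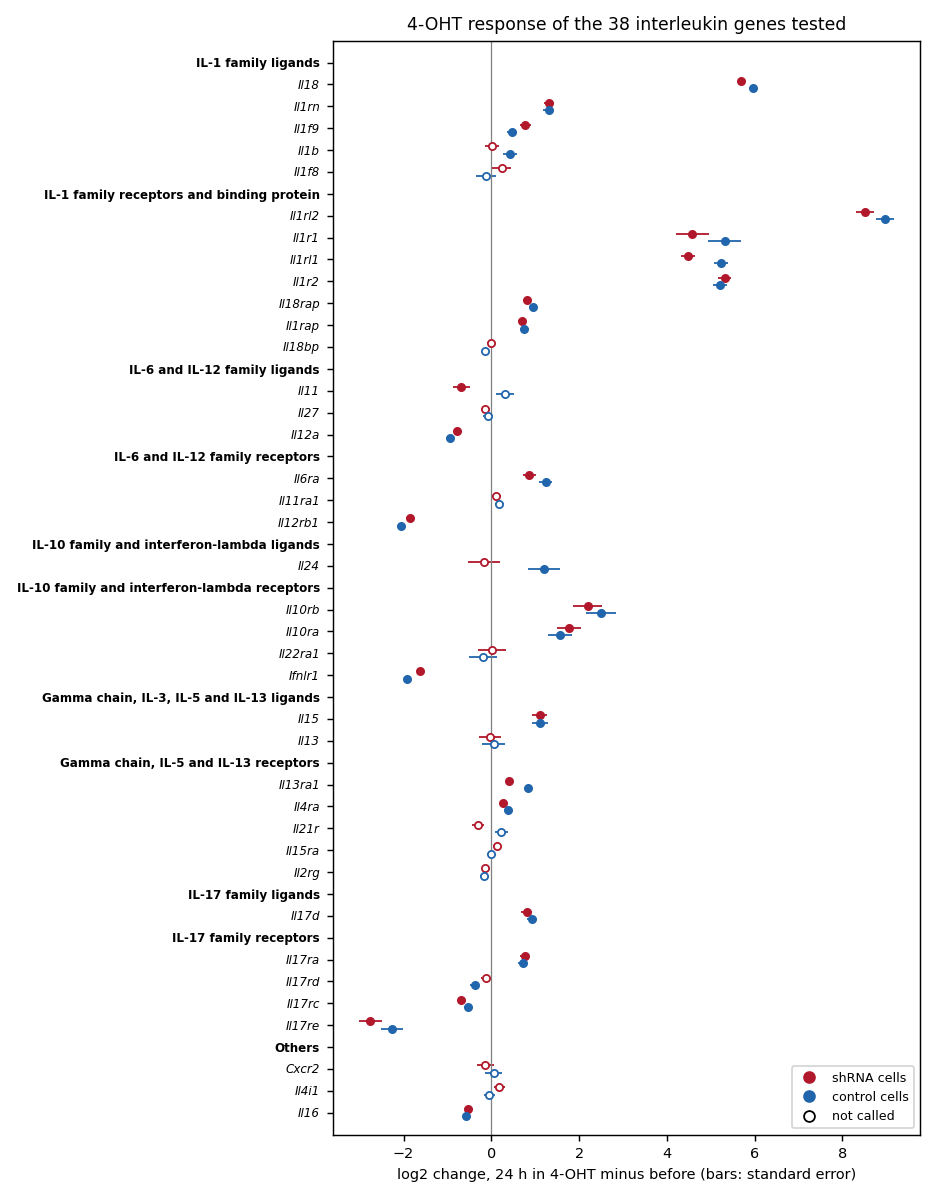
Log2 change with 4-OHT, after minus before (horizontal axis), of the 38 genes tested, grouped by role (vertical axis), with shRNA cells in red above control cells in blue. Bars are the standard error of the fit and open circles are genes that did not pass; Il1rl2, Il18, Il1r2, Il1r1 and Il1rl1 stand apart on the right.

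Among the IL-1 family receptors, 6 of 7 tested rose with 4-OHT in both vectors and none fell, and 4 of the 6 were the strongest receptor changes of the whole set. Of these, Il1rl2, Il1r1 and Il1rl1 entered the test only through their arrays after 4-OHT. A rise was the only direction open to them, so they do not support a trend of the family. Values are log2 intensity relative to the 75th percentile of each array, in the order A, B and C. Il1rl2, the IL-36 receptor, gave 1.55, 1.66 and 1.53 on the shRNA arrays after 4-OHT, against -7.35, -7.10 and -6.38 before it. On the control arrays it gave 2.26, 2.05 and 2.05 after 4-OHT, against -6.64, -6.96 and -6.94 before it. No array before 4-OHT was well above background, so the change is a bound: at least 99.0-fold higher in shRNA cells and at least 109.9-fold in control cells. For such a bound the dim group's arrays are set to the lowest signal that the scanner software called well above background there, or to their own signal where that is higher. The measured log2 changes were 8.52 (SE 0.21, limma adjusted p = 6.60e-10) and 8.96 (SE 0.21, adjusted p = 3.95e-10), and within 1 slide they were 7.95 and 9.10. The rise was seen by the probe at chr1:40606514-40606573 (build mm7) alone, which was designed on a cDNA clone. The other Il1rl2 probe, at chr1:40585262-40585321, was designed on the RefSeq transcript of the gene. It was well above background on 1 of 3 arrays after 4-OHT in each vector and on none before it. Its means after 4-OHT were -6.51 in shRNA cells and -6.27 in control cells, so a rise of the RefSeq transcript was not shown.

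Il1r2, the decoy receptor of IL-1, rose as well. On the shRNA arrays it read 1.08, 0.98 and 1.18 after 4-OHT, against -4.33, -4.46 and -3.92 before it. The control arrays read 0.98, 0.83 and 0.95 after 4-OHT and -4.56, -4.27 and -4.04 before it. The groups lay far apart in both vectors, with a 39.9-fold rise in shRNA cells (log2 5.32, SE 0.15, limma adjusted p = 2.35e-09) and a 37.0-fold rise in control cells (log2 5.21, SE 0.15, adjusted p = 2.42e-09). A second Il1r2 probe was not well above background before 4-OHT, and its rise was at least 28.6-fold in shRNA cells and at least 18.8-fold in control cells.

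Il1r1, the signalling receptor of IL-1, read -1.86, -1.64 and -1.89 on the shRNA arrays after 4-OHT, against -5.97, -5.78 and -7.37 before it. In control cells its values were -0.93, -1.10 and -1.01 after 4-OHT and -6.71, -6.57 and -5.71 before it. It was not well above background on any of the 6 arrays before 4-OHT and was so on all 6 after. Its rise was at least 9.55-fold in shRNA cells (log2 4.58, SE 0.38, limma adjusted p = 4.72e-06) and at least 12.5-fold in control cells (log2 5.32, SE 0.38, adjusted p = 1.28e-06).

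Il1rl1, the IL-33 receptor, gave -1.87, -1.82 and -1.82 on the shRNA arrays after 4-OHT, against -6.68, -6.25 and -6.01 before it. The control arrays gave -1.37, -1.32 and -1.16 after 4-OHT, against -6.28, -6.54 and -6.71 before it. This gene too was not well above background on any array before 4-OHT, and the bounds were at least 9.28-fold in shRNA cells (log2 4.48, SE 0.16, limma adjusted p = 9.77e-09) and at least 10.4-fold in control cells (log2 5.23, SE 0.16, adjusted p = 3.05e-09). The signal came from the probe at chr1:40705585-40705644 (mm7), which was designed on the transcript of the long, membrane-bound form. Both other probes, at chr1:40688351-40688410 and chr1:40680766-40681628, were designed on the transcript of the short, soluble form and were well above background on no array. Whether their bases are also part of the long form was not tested, so the probes do not tell the forms apart. The Il1rl1 rise thus rests on 1 of 3 probes. With normexp background correction, which raises dim signals, the log2 rises in shRNA and control cells were 5.59 and 5.89 for Il1rl2, 2.29 and 2.86 for Il1r1 and 2.06 and 2.53 for Il1rl1.

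The partner chains moved less. Il1rap rose 1.63-fold in shRNA cells (log2 0.70, limma adjusted p = 0.000228) and 1.69-fold in control cells (log2 0.75, adjusted p = 0.000124), and 2 further probes of the gene rose in both vectors. Il18rap, a chain of the IL-18 receptor, rose 1.74-fold (log2 0.80, adjusted p = 2.62e-05) and 1.93-fold (log2 0.95, adjusted p = 6.37e-06) in the same order. Its partner Il18r1 was well above background on no array. Il18bp, the secreted protein that binds IL-18, had log2 differences of -0.02 in shRNA cells and -0.14 in control cells and did not pass.

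**Figure D3:**
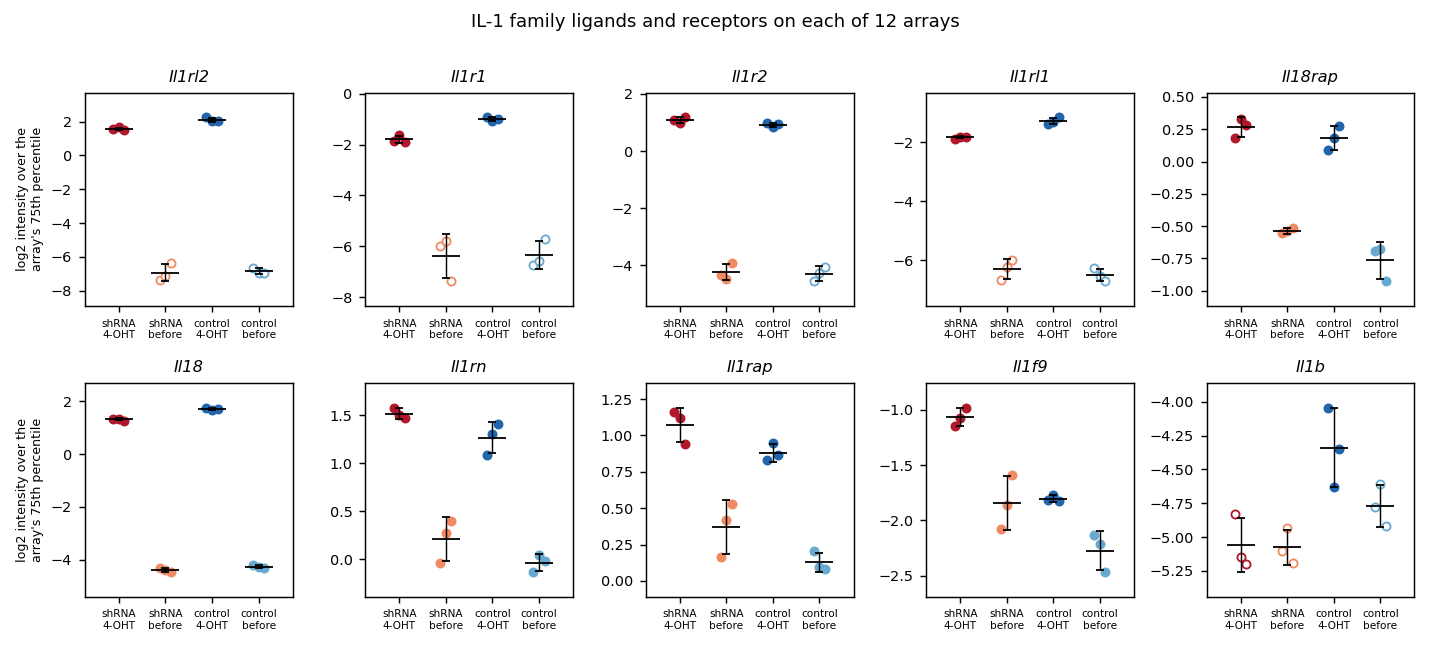
Log2 intensity relative to the array's 75th percentile (vertical axes, different for each gene) of 10 IL-1 family genes on each of the 12 arrays, by vector and treatment (horizontal axes). Points are arrays, lines are means with SD (n = 3), and open points mark groups not well above background on all 3 arrays; Il1rl2, Il1r1, Il1r2, Il1rl1 and Il18 separate by 4-OHT in both vectors, and Il1b does not in shRNA cells.

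The 6 receptor genes from Il1r2 to Il18rap lie side by side on chromosome 1, within 438.1 kb of each other by the probe positions. The order along the chromosome was Il1r2, Il1r1, Il1rl2, Il1rl1, Il18r1 and Il18rap, and the response was not even along it. The first 4 genes rose steeply, Il1rl2 and Il1rl1 each on 1 of their probes only. Il18r1 gave no signal and Il18rap rose 1.74-fold in shRNA cells and 1.93-fold in control cells. Of the neighbours within 500 kb on either side, the probes of Map4k4, Creg2, Rfx8, Slc9a4, Slc9a2 and Tmem182 were not tested, being well above background on too few arrays. Mfsd9, a transporter gene beyond Slc9a2, had 2 tested probes with log2 changes of 0.89 and 0.21 in shRNA cells and 0.04 and 0.42 in control cells.

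**Figure D4:**
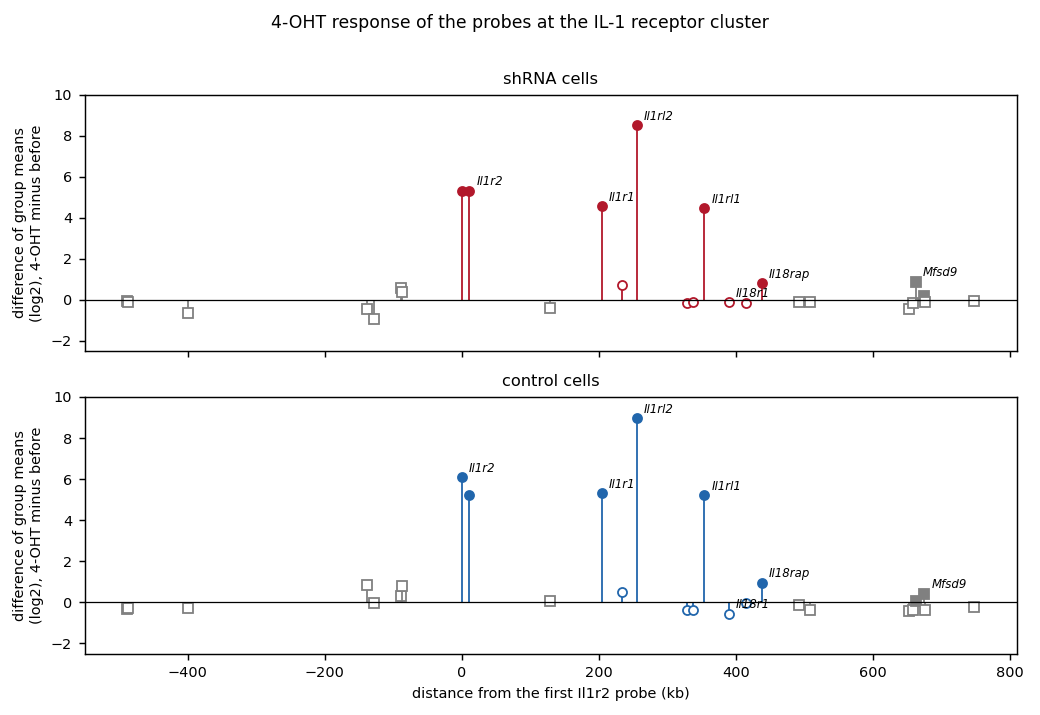
Difference of group means on the log2 scale, after minus before 4-OHT (vertical axis), of every probe within 500 kb of the IL-1 receptor genes, by distance from the first Il1r2 probe in kb (horizontal axis), with shRNA cells above control cells. Circles are interleukin receptor probes, squares are other genes, and open symbols were not well above background on all 3 arrays of either group; tall lines stand at Il1r2, Il1r1, Il1rl2 and Il1rl1.

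Of the IL-1 family ligands, Il18, Il1rn and Il1f9 rose in both vectors and Il1b only just passed in control cells. Il18 is a cytokine that caspase-1 cuts into its active form. Its values were 1.34, 1.33 and 1.27 on the shRNA arrays after 4-OHT, against -4.30, -4.40 and -4.45 before it. On the control arrays they were 1.75, 1.66 and 1.70 after 4-OHT, against -4.19, -4.26 and -4.32 before it. Arrays of a group differed by 0.15 at most, and the groups lay far apart. The rise was 52.0-fold in shRNA cells (log2 5.70, SE 0.06, limma adjusted p = 5.13e-12) and 62.4-fold in control cells (log2 5.96, SE 0.06, adjusted p = 3.47e-12). The 10 spots of the probe had an SD of 0.03 to 0.34 on the log2 scale within an array.

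Il1rn, the receptor antagonist that blocks IL-1, read 1.58, 1.50 and 1.47 in shRNA cells after 4-OHT, against -0.04, 0.27 and 0.40 before it. Control cells read 1.09, 1.31 and 1.40 after 4-OHT and -0.13, 0.04 and -0.02 before it. The log2 change was 1.31 in shRNA cells (SE 0.12, limma adjusted p = 9.43e-06) and 1.30 in control cells (SE 0.12, adjusted p = 8.51e-06), 2.47-fold in each. The other Il1rn probe rose by 0.56 in shRNA cells (adjusted p = 0.0206) and by 1.10 in control cells (adjusted p = 0.000348), so the like size in both vectors rests on 1 probe. Il1f9, which encodes IL-36 gamma, a ligand of Il1rl2, gave -1.15, -1.08 and -0.98 on the shRNA arrays after 4-OHT, against -2.08, -1.86 and -1.59 before it. Its control values were -1.82, -1.77 and -1.83 after 4-OHT and -2.13, -2.22 and -2.47 before it, and it rose by 0.77 and 0.47 on the log2 scale (limma adjusted p = 0.000567 and 0.0111 in shRNA and control cells). The IL-36 beta gene Il1f8 had log2 differences of 0.24 and -0.13 and did not pass. Il1b, the best known ligand of Il1r1, stayed close to background. Its values were -4.83, -5.14 and -5.20 in shRNA cells after 4-OHT, against -5.10, -4.94 and -5.19 before it. In control cells they were -4.04, -4.63 and -4.35 after 4-OHT and -4.78, -4.61 and -4.92 before it, which overlap. The log2 difference was 0.02 in shRNA cells (adjusted p = 0.936) and 0.43 in control cells (adjusted p = 0.0484), and 13 of the 22 other settings tried ended the control call.

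The IL-6 and IL-12 families held both directions. Il6ra, the IL-6 receptor, read -0.80, -0.73 and -0.46 on the shRNA arrays after 4-OHT, against -1.40, -1.69 and -1.49 before it. The control arrays read -0.97, -0.56 and -0.54 after 4-OHT and -1.71, -2.04 and -2.04 before it. It rose 1.82-fold in shRNA cells (log2 0.86, SE 0.15, limma adjusted p = 0.000919) and 2.36-fold in control cells (log2 1.24, SE 0.15, adjusted p = 6.25e-05). Il6st, the gp130 chain with which Il6ra signals, has 1 probe here and it was well above background on a single control array before 4-OHT. Il12rb1, a chain shared by the IL-12 and IL-23 receptors, fell in both vectors. Its values were -1.26, -1.37 and -1.23 in shRNA cells after 4-OHT, against 0.61, 0.57 and 0.53 before it. Control cells gave -1.37, -1.58 and -1.78 after 4-OHT and 0.57, 0.53 and 0.35 before it. The fall was 3.62-fold in shRNA cells (log2 -1.85, SE 0.10, limma adjusted p = 2.24e-07) and 4.17-fold in control cells (log2 -2.06, SE 0.10, adjusted p = 8.69e-08), with no overlap of the groups. The partner chains Il12rb2 and Il23r gave no signal on any array.

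Il12a, the p35 subunit of IL-12, fell as well. It gave -3.02, -2.96 and -2.85 on the shRNA arrays after 4-OHT, against -2.31, -2.16 and -2.03 before it, and -2.97, -3.09 and -3.05 on the control arrays after 4-OHT, against -2.12, -2.05 and -2.11 before it. That is a log2 change of -0.77 (SE 0.08, limma adjusted p = 2.72e-05) and -0.94 (SE 0.08, adjusted p = 5.39e-06). The p40 subunit Il12b, which IL-12 and IL-23 share, was well above background on no array. Il11, an IL-6 family cytokine, was dim. It read -4.85, -4.91 and -4.36 in shRNA cells after 4-OHT, against -3.98, -3.98 and -4.11 before it, and -4.63, -4.56 and -4.23 in control cells after 4-OHT, against -4.96, -4.32 and -5.04 before it. The fall of 1.6-fold in shRNA cells passed (log2 -0.68, adjusted p = 0.0222), and in control cells, where the groups overlap, the log2 difference was 0.31 (adjusted p = 0.27). The Il11 call ended with slide as a block (adjusted p = 0.184 as a fixed and 0.0643 as a random block). Il27 and the IL-11 receptor Il11ra1 did not pass with 4-OHT in either vector.

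In the IL-10 family the receptors of IL-10 rose and that of interferon lambda fell. Il10ra, the ligand-binding chain, gave -3.48, -4.05 and -3.48 on the shRNA arrays after 4-OHT, against -5.40, -5.36 and -5.57 before it. The control arrays gave -3.67, -3.93 and -3.76 after 4-OHT and -4.92, -5.06 and -6.09 before it. It was not well above background before 4-OHT in either vector, and the rise was at least 2.6-fold in shRNA cells (log2 1.77, limma adjusted p = 0.000427) and at least 1.84-fold in control cells (log2 1.57, adjusted p = 0.000881). Il10rb, the chain shared with the IL-22 and interferon lambda receptors, was tested on a dim probe that read -4.99, -4.32 and -4.03 in shRNA cells after 4-OHT, against -6.16, -7.20 and -6.57 before it. In control cells that probe read -3.93, -4.07 and -3.61 after 4-OHT and -6.19, -6.94 and -5.98 before it. The bounds were at least 1.52-fold (log2 2.20, adjusted p = 0.000401) and at least 1.73-fold (log2 2.50, adjusted p = 0.000145) in shRNA and control cells. The gene's other probe was not tested because the scanner software had marked its spot as an outlier on 3 arrays, all after 4-OHT. With those spots kept that probe was the one tested, and its log2 change was 1.14 in shRNA cells (limma adjusted p = 9.13e-07) and 1.19 in control cells (adjusted p = 5.26e-07). With normexp the log2 rise of Il10ra was 0.68 in shRNA cells and 0.76 in control cells, and that of the tested Il10rb probe 0.47 and 0.97. Il22ra1, a chain of the IL-22 receptor, did not pass in either vector.

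Ifnlr1, the receptor chain specific to interferon lambda (named Il28ra on the array), fell. Its values were -1.82, -1.75 and -1.76 on the shRNA arrays after 4-OHT, against -0.19, -0.13 and -0.15 before it. On the control arrays they were -2.25, -2.28 and -2.29 after 4-OHT, against -0.38, -0.28 and -0.37 before it. The groups were tight and apart, with a 3.08-fold fall in shRNA cells (log2 -1.62, SE 0.06, limma adjusted p = 7.03e-09) and a 3.82-fold fall in control cells (log2 -1.93, SE 0.06, adjusted p = 1.88e-09). Of the ligands of this family only Il24 was bright enough to test. It read -4.39, -4.38 and -3.94 in shRNA cells after 4-OHT, against -3.78, -4.05 and -4.37 before it, and -4.09, -4.28 and -3.13 in control cells after 4-OHT, against -4.30, -5.62 and -5.19 before it. The control rise passed (log2 1.20, SE 0.36, adjusted p = 0.0221) and ended with slide as a block (adjusted p = 0.219 as a fixed and 0.0721 as a random block), while in shRNA cells the difference was -0.17 (adjusted p = 0.736). A second Il24 probe, on the same transcript, was well above background on no array.

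Receptors that use the common gamma chain, and those of IL-4 and IL-13, changed less: of 5 tested, 2 rose in both vectors and none fell. Il2rg, the common chain itself, read 0.88, 0.93 and 0.92 on the shRNA arrays after 4-OHT, against 0.95, 1.02 and 1.17 before it. The control arrays read 0.79, 0.80 and 0.72 after 4-OHT and 1.09, 0.83 and 0.91 before it. It did not pass in shRNA cells (log2 -0.13, limma adjusted p = 0.212) or in control cells (log2 -0.18, adjusted p = 0.111). Il4ra, the IL-4 receptor, gave 2.83, 2.88 and 3.04 in shRNA cells after 4-OHT, against 2.60, 2.60 and 2.73 before it, and 2.91, 2.78 and 2.86 in control cells after 4-OHT, against 2.59, 2.48 and 2.38 before it. Its small rises passed, with log2 changes of 0.27 (SE 0.08, adjusted p = 0.024) and 0.37 (SE 0.08, adjusted p = 0.0044), and the shRNA call ended with slide as a block (adjusted p = 0.241 as a fixed and 0.0767 as a random block). Il13ra1, which pairs with Il4ra, gave -0.25, -0.30 and -0.30 in shRNA cells after 4-OHT, against -0.63, -0.74 and -0.68 before it. Its control values were 0.43, 0.36 and 0.20 after 4-OHT and -0.55, -0.41 and -0.57 before it. It rose by 0.40 in shRNA cells (adjusted p = 0.00167) and by 0.84 in control cells (adjusted p = 7.26e-06) on the log2 scale. Its other probe changed by 0.06 in shRNA cells (adjusted p = 0.709) and 0.53 in control cells (adjusted p = 0.00515), and with the mean of the probes the shRNA call ended (log2 0.23, adjusted p = 0.0677).

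Il7r, the IL-7 receptor of lymphoid progenitors, had 3 probes, of which 1 was well above background on a single shRNA array before 4-OHT. That probe read -5.54, -5.90 and -5.11 in shRNA cells after 4-OHT, against -4.87, -4.69 and -4.54 before it, and -5.73, -5.48 and -5.80 in control cells after 4-OHT, against -4.57, -4.58 and -4.51 before it. Il5ra, the IL-5 receptor of eosinophils, stood at -6.39 or lower on all 12 arrays, and Il3 at -5.06 or lower. Neither these values nor those of Il7r can be read as levels, since nearly all arrays were not well above background. Of the 2 ligands tested with these receptors, Il13 did not pass and Il15, a cytokine that sustains NK and memory T cells, rose. It read -0.22, -0.43 and -0.47 on the shRNA arrays after 4-OHT, against -1.49, -1.37 and -1.58 before it. The control arrays read -0.30, -0.34 and -0.39 after 4-OHT and -1.21, -1.21 and -1.94 before it. The rise was 2.15-fold in shRNA cells (log2 1.11, SE 0.17, limma adjusted p = 0.000477) and 2.16-fold in control cells (log2 1.11, SE 0.17, adjusted p = 0.000429). A second probe, on another transcript of the gene, changed by 0.42 (adjusted p = 0.0104) in shRNA cells and 0.05 (adjusted p = 0.742) in control cells. Il21r and Il15ra did not pass with 4-OHT.

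The IL-17 receptor chains went different ways. Il17ra, the chain that IL-17 receptors share, gave 3.35, 3.52 and 3.63 on the shRNA arrays after 4-OHT, against 2.73, 2.65 and 2.84 before it. The control arrays gave 3.01, 3.23 and 3.34 after 4-OHT and 2.61, 2.42 and 2.41 before it. It rose 1.69-fold in shRNA cells (log2 0.76, SE 0.11, limma adjusted p = 0.000219) and 1.64-fold in control cells (log2 0.71, SE 0.11, adjusted p = 0.000309), and its second probe rose by 0.77 and 0.71. Il17re, the IL-17C receptor chain, fell and was not well above background on any array after 4-OHT. It read -5.95, -5.65 and -5.23 in shRNA cells after 4-OHT, against -3.03, -2.99 and -2.55 before it, and -5.49, -6.13 and -5.45 in control cells after 4-OHT, against -3.84, -3.24 and -3.18 before it. The fall was at least 4.97-fold in shRNA cells (log2 -2.76, adjusted p = 1.11e-05) and at least 3.11-fold in control cells (log2 -2.27, adjusted p = 4.12e-05), and with normexp the log2 changes were -1.51 and -0.72.

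Il17rc, which pairs with Il17ra to bind IL-17A and IL-17F, fell too. Its values were 1.17, 1.14 and 1.27 on the shRNA arrays after 4-OHT, against 1.90, 1.87 and 1.89 before it, and 1.56, 1.42 and 1.33 on the control arrays after 4-OHT, against 2.02, 1.88 and 2.02 before it. The log2 change was -0.70 (SE 0.07, limma adjusted p = 3.19e-05) in shRNA cells and -0.54 (SE 0.07, adjusted p = 0.000177) in control cells. Il17rd, a related receptor that restrains growth factor signalling, read -0.49, -0.46 and -0.28 in shRNA cells after 4-OHT, against -0.36, -0.34 and -0.17 before it, and -0.42, -0.53 and -0.59 in control cells after 4-OHT, against 0.06, -0.30 and -0.17 before it. The control fall passed (log2 -0.38, adjusted p = 0.0138), while the log2 difference in shRNA cells was -0.12 (adjusted p = 0.364), with overlapping groups. The Il17rd call in control cells ended with slide as a fixed block (adjusted p = 0.149) and with the mean of the probes (log2 -0.26, adjusted p = 0.0672). A second Il17rd probe changed by -0.14 in control cells (adjusted p = 0.503) and by -0.32 in shRNA cells (adjusted p = 0.109). Il17d, the only IL-17 ligand tested, rose. It gave -1.82, -1.42 and -1.65 on the shRNA arrays after 4-OHT, against -2.32, -2.55 and -2.43 before it, and -1.13, -1.10 and -1.19 on the control arrays after 4-OHT, against -1.91, -2.25 and -2.03 before it. Its log2 change was 0.80 (SE 0.12, adjusted p = 0.000307) in shRNA cells and 0.92 (SE 0.12, adjusted p = 0.000105) in control cells. Il17a, Il17f and their relatives Il17b and Il25 gave no signal or a signal on 1 array.

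Il16, a chemoattractant of CD4+ cells made as a longer precursor, was lower after 4-OHT on its brighter probe. That probe read 1.25, 1.04 and 1.17 in shRNA cells after 4-OHT, against 1.70, 1.71 and 1.63 before it, and 1.48, 1.24 and 1.11 in control cells after 4-OHT, against 1.78, 1.88 and 1.89 before it. The log2 changes were -0.53 (SE 0.10, limma adjusted p = 0.00144) and -0.57 (SE 0.10, adjusted p = 0.000715). The other Il16 probe gave 0.05 (adjusted p = 0.795) in shRNA cells and -0.35 (adjusted p = 0.0622) in control cells and did not pass. Over all members, 15 genes had a second probe that could be tested on its own, with 17 such probes. Where the gene's main probe was called with 4-OHT, the other probe had the same sign in 11 of 12 cases in shRNA cells and 13 of 13 in control cells. It passed itself in 9 cases in each vector. Probes too dim to test, such as the other ones of Il1rl2 and Il1rl1, are not in this count. Cxcr2 (named Il8rb on the array), a chemokine receptor of neutrophils, did not pass in either vector.

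Between the vectors after 4-OHT, 4 of the 38 genes were higher in shRNA cells and 6 were lower, where 7.85% of all genes tested were higher and 8.82% lower. The median log2 difference of the 38 was 0.05, beside -0.04 over all genes. The differences were small: the largest of the 10 was 1.66-fold (Il1f9), and the shRNA arrays did not overlap the control arrays for any of the 10. The same was so for 20 of the 38 genes tested and for 38.6% of all genes. The vectors shared no slide within a treatment, so slide and vector cannot be told apart in this comparison except through the other groups. With slide as a fixed or random block in the fit none of the 10 passed, and their limma adjusted p ran from 0.237 to 0.926 with a fixed block and from 0.0602 to 0.296 with a random block. Over all 15061 genes, 1 passed with a fixed and 0 with a random block. Leaving out 1 array changed the count of 10 to between 4 and 12. It was 4 without shRNA replicate C, 5 without shRNA replicate B, 6 without shRNA replicate A and 5 without control replicate B, all after 4-OHT.

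Higher in shRNA cells after 4-OHT were Il1f9, Ifnlr1, Il4i1 and Il15ra. Il1f9, whose values stand above, was 1.66-fold higher (log2 0.74, SE 0.12, limma adjusted p = 0.0122), and its second probe gave 0.57 (adjusted p = 0.0325). Its means were -1.07 ± 0.08 in shRNA cells and -1.80 ± 0.03 in control cells (SD, n = 3). For Ifnlr1 the difference was 1.41-fold (log2 0.50, SE 0.06, adjusted p = 0.0074), with means of -1.78 ± 0.04 and -2.27 ± 0.02. With slide as a fixed block the log2 differences were 0.35 for Il1f9, 0.50 for Ifnlr1, 0.25 for Il4i1 and 0.12 for Il15ra. Both genes also lay on the same side before 4-OHT, by 0.43 and 0.19, without passing. Il4i1, an enzyme that oxidises amino acids and is induced by IL-4, gave -2.41, -2.58 and -2.25 in shRNA cells, against -2.64, -2.89 and -3.00 in control cells, both after 4-OHT (log2 0.43, adjusted p = 0.0407). Before 4-OHT it gave -2.65, -2.72 and -2.40 in shRNA cells, against -2.75, -2.73 and -2.91 in control cells. Il15ra, the chain that presents IL-15, gave -0.30, -0.12 and -0.02 in shRNA cells, against -0.54, -0.49 and -0.34 in control cells after 4-OHT (log2 0.31, adjusted p = 0.0429). Before 4-OHT it read -0.37, -0.27 and -0.16 in shRNA cells and -0.40, -0.46 and -0.52 in control cells. The Il4i1 and Il15ra calls were fragile: 14 and 13 of the 22 other settings ended them.

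Lower in shRNA cells after 4-OHT were Il1b, Il13ra1, Il1rl1, Il17d, Il11ra1 and Il18. Il13ra1 had means of -0.28 ± 0.03 in shRNA cells and 0.33 ± 0.12 in control cells, a 1.53-fold difference (log2 -0.61, SE 0.07, limma adjusted p = 0.0074). Its second probe gave -0.76 (adjusted p = 0.0122). Il18 averaged 1.31 ± 0.04 in shRNA cells and 1.70 ± 0.04 in control cells, 1.31-fold lower (log2 -0.39, SE 0.06, adjusted p = 0.0116). That gap is small beside its rise with 4-OHT in either vector. Il1rl1 averaged -1.84 ± 0.03 and -1.28 ± 0.11 in the same order (log2 -0.55, SE 0.16, adjusted p = 0.0415), and 13 of 22 other settings ended that call. Il17d had a log2 difference of -0.49 (SE 0.12, adjusted p = 0.0245) after 4-OHT and -0.37 (adjusted p = 0.119) before it. Il1b was 1.64-fold lower (log2 -0.72, SE 0.15, adjusted p = 0.0197), on a probe that was well above background on 1 of 3 shRNA arrays and all 3 control arrays. Il11ra1 gave 2.02, 2.00 and 1.96 in shRNA cells, against 2.69, 2.38 and 2.21 in control cells after 4-OHT, and 1.96, 1.85 and 1.85 against 2.28, 2.17 and 2.30 before it. Its log2 difference was -0.43 after 4-OHT (adjusted p = 0.026) and -0.36 before it (adjusted p = 0.106). The Il17d call ended under 7 of the 22 other settings and the Il11ra1 call under 8. With slide as a fixed block the log2 differences were -0.40 for Il1b, -0.56 for Il13ra1, -1.06 for Il1rl1, -0.49 for Il17d, -0.24 for Il11ra1 and -0.27 for Il18.

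**Figure D5:**
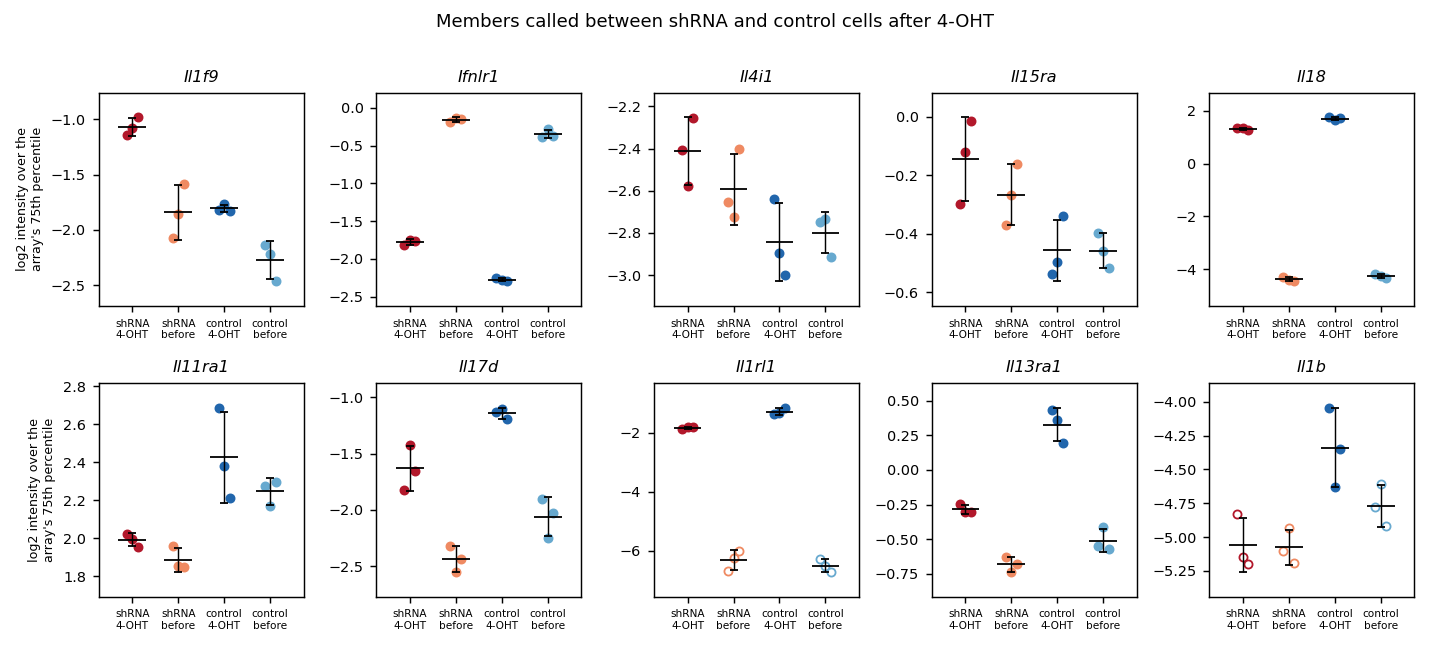
Log2 intensity relative to the array's 75th percentile (vertical axes, different for each gene) on each array, by vector and treatment (horizontal axes), of the 10 genes called between shRNA and control cells after 4-OHT. Points are arrays, lines are means with SD (n = 3), and open points mark groups not well above background on all 3 arrays; the 2 groups after 4-OHT do not overlap for these genes, as for 20 of the 38 members and 38.6% of all genes tested.

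Probes of the same gene disagreed for some members: 4 other probes were called between the vectors after 4-OHT where the gene's main probe was not, and there was no such case with 4-OHT. Il1rn differed by 0.25 on its main probe (limma adjusted p = 0.16) and by -0.91 on the other (adjusted p = 0.0149). The first gave 1.58, 1.50 and 1.47 in shRNA cells, against 1.09, 1.31 and 1.40 in control cells after 4-OHT. On the second, -2.53, -2.61 and -3.01 stood against -1.82, -1.81 and -1.80 in the same order, so the 2 probes printed above gave differences of opposite sign. Il1rap differed by 0.19 on its main probe (adjusted p = 0.191) and by -0.53 and -0.42 on 2 others (adjusted p = 0.0357 and 0.0435). The other Il16 probe gave 0.45 (adjusted p = 0.0441), beside -0.12 on the main one. For the 4 genes called whose second probe could be tested (Il1f9, Il15ra, Il13ra1 and Il11ra1) that probe was called with the same sign.

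Before 4-OHT none of the 38 genes passed between the vectors, where 0.146% of all genes tested were higher and 0.232% lower in shRNA cells (limma). At an unadjusted p under 0.05 there were 11 of 38, beside 22.3% of all genes. The lowest adjusted p was that of Il11, with -3.98, -3.98 and -4.11 in shRNA cells, against -4.96, -4.32 and -5.04 in control cells (log2 0.75, SE 0.20, adjusted p = 0.0939). Leaving out 1 array gave a count of 0 or 1: Il11ra1 passed without control replicate A after 4-OHT, and Il1f9 without shRNA replicate A before it. The test of whether the 4-OHT response differed between shRNA and control cells also found none of the 38 (limma), and 0% of all genes passed in either direction. At an unadjusted p under 0.05 there were 7 of 38, beside 5.25% of all genes: Il24 (difference of log2 changes -1.37), Il11 (-0.99), Il1rl1 (-0.75), Il21r (-0.54), Il13ra1 (-0.44), Il18 (-0.26) and Ifnlr1 (0.31). The lowest adjusted p of these was 0.656, for Il13ra1.

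Other genes of interleukin signalling, on a list of 58 of which 50 were tested, also moved with 4-OHT in both directions. In shRNA cells 17 rose and 11 fell, where 16.5% of all genes rose and 21.8% fell. In control cells 14 rose and 11 fell, where 17.5% rose and 23% fell. Genes that process IL-1 and IL-18 rose or did not pass: 5 of 7 rose in shRNA cells and 4 of 7 in control cells. Nlrp3, an inflammasome sensor, rose 2.37-fold in shRNA cells and 2.93-fold in control cells (log2 1.24 and 1.55). Casp1, the protease that cuts both cytokines, rose 1.34-fold and 1.33-fold, and its adaptor Pycard 1.23-fold and 1.6-fold. Of the 11 IL-1 adaptors, 3 rose and 4 fell in shRNA cells and 1 rose and 4 fell in control cells. Those that fell were the IRAK family members Irak2 (log2 -1.37 in shRNA cells and -1.33 in control cells), Irak3 (-0.50 and -0.62) and Irak4 (-0.27 and -0.40) and the ligase Traf6 (-0.38 and -0.69).

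Among the JAK kinases, Jak2, which serves the IL-3 receptor, rose 3.3-fold in shRNA cells and 3.38-fold in control cells, and Jak3, which serves the common gamma chain, fell (log2 -0.64 and -0.75). Of 6 STAT factors tested, Stat2 rose (log2 0.57 and 0.72) and Stat5a fell (-0.31 and -0.46) in both vectors. Of 15 feedback inhibitors, 6 rose and 3 fell in each vector. Ptpn6, a phosphatase that dampens cytokine receptors, rose 3.1-fold and 2.94-fold in shRNA and control cells, and Socs3, an inhibitor of gp130 receptors, fell (log2 -1.09 and -0.85). The partner cytokine Ebi3, a subunit of IL-27 and IL-35, rose (log2 0.91 and 1.33), and Osm, an IL-6 family cytokine, fell (-2.23 and -2.18). Tslp, which signals through a receptor with Il7r, fell at least 4.14-fold in shRNA cells and at least 3.48-fold in control cells. Between the vectors after 4-OHT, 8 of the 50 were higher and 4 lower in shRNA cells, where 7.85% of all genes were higher and 8.82% lower, and none of the 50 passed before 4-OHT. Slide and vector cannot be told apart here either, and none of the 50 passed with slide as a fixed or random block. The 4 lower were Pycard (log2 -0.38), Socs1 (-0.54), Stat3 (-0.40) and Pias1 (-0.25).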

How the data were processed

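RNA of 12 cultures was read on 1-colour Agilent 4x44 mouse arrays, 3 per group. The deposited files hold each spot's intensity as processed by Agilent Feature Extraction (9.5 per the submitters' processing notes, 9.5.3.1 per the file headers). Spots marked as outliers were dropped and spots of a probe averaged. Each value is log2 of the processed intensity minus the array's 75th percentile, which ran from 1196 to 2583. A gene was tested on its brightest probe well above background on at least 3 arrays. limma 3.58.1 (R 4.3.3; lmFit, eBayes) fitted the 4 group means, with Benjamini-Hochberg adjustment over 15061 genes and a threshold of 0.05, and was tested on simulated data. Second probes were adjusted in a fit over all probes. P-values measure the spread between these arrays, from 3 independent experiments with separate clones for each vector, per the labels. Probe positions are those of the array's design (mm7). Genes are named by transcript, symbol or older symbol through RefSeq. Named genes are those called between the groups, those with the largest changes of their role, and receptors chosen for this line. The members and lists were chosen with earlier results of these data known. Other background corrections, normalizations, filters and blocks were tried, and each array was left out in turn.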

Additional observations from a re-analysis of the deposited data

How the results depend on the processing

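The counts of interleukin genes called with 4-OHT were stable: 22 to 24 in shRNA cells and 24 to 28 in control cells over the alternative settings, and 22 to 25 and 24 to 26 when 1 array was left out. Between shRNA and control cells after 4-OHT the count of 10 (4 higher) became 4 with no filter on dim probes, 0 with slide as a fixed block and 0 with slide as a random block. It was 8 with normexp background correction, of which 1 was higher and 5 were among the 10, and 7 with quantile normalization. Leaving out 1 array gave 4 to 12. Before 4-OHT the count was 0, and 0 to 1 without 1 array. The test of different responses gave 0 throughout. The cause of these changes was not tested. With a replicate block the counts were 24, 26, 9, 0 and 0 in shRNA cells, in control cells, after 4-OHT, before it and for the difference of responses. Whether the letters A, B and C pair the arrays is not settled. Same-letter pairs correlated from -0.09 to 0.30, with 6 of 18 above 0.1, and pairs of different letters from -0.33 to 0.17. Calls that ended under many settings are given beside their genes. The Il10rb call in shRNA cells also ended with normexp (log2 0.47, adjusted p = 0.139). Probes near background limit the smallest changes that can be seen, and folds against a dim group are bounds.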
